A study of Mus musculus with 6 samples.

Results

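The 10 genes described here carry or control sodium, magnesium and calcium transport in the distal convoluted tubule, the nephron segment that follows the thick ascending limb. They were chosen by name and not by a measured value, but with earlier results of these data known. They were Slc12a3, Trpm6, Pvalb, Calb1, Trpv5, Slc8a1, Wnk1, Wnk4, Stk39 and Klhl3, out of 24422 genes in the count tables, and all 10 were among the 15171 genes that passed the filter on low counts. RNA was sequenced from 6 whole kidneys of C57BL/6 mice at postnatal day 60, all on an iron sufficient diet with 220 ppm iron. The 3 control kidneys were labelled wild type. The other 3, labelled TfR1KO;KspCre with the genotype Tfr1f/f;KspCre, carry floxed alleles of the transferrin receptor TfR1 (gene Tfrc) and a Cre recombinase under the Ksp-cadherin promoter, which is active in the distal nephron and not in every kidney cell. They are called knockouts 1 to 3 here by their labels. The labels do not give the sex of the mice. The study counts separate mice in each model and calls the wild type controls littermates, and the labels do not say which mice shared a litter.

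In the distal convoluted tubule, sodium and chloride enter the cell through the thiazide-sensitive cotransporter NCC. WNK kinases switch NCC on through the kinase SPAK, and an ubiquitin ligase adaptor, KLHL3, removes WNK kinases. Magnesium enters through the channel TRPM6. Further along the segment calcium enters through TRPV5, is carried across the cell by calbindin and leaves through a sodium-calcium exchanger and calcium pumps.

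Tfrc gave no check of the labels in whole kidney. Its level in CPM (counts per 1e6 counts of a library, TMM-normalised) was 138.5, 167.9 and 62.0 for controls 1 to 3, against 214, 86.0 and 40.6 for knockouts 1 to 3, and knockout 1 was the highest of all 6. Libraries held 11501053 to 21001341 counts, the smallest being knockout 3. Control 2 held 3980 counts of 4 Y-linked genes against 3 to 5 in each other library. It held 52 counts of Xist against 10458 to 23845 in the others. The groups were thus not balanced in these genes, and the Xist to Y-linked covariate used below mainly set control 2 apart. Of the 15171 genes, 2612 (17.2%) were called at an adjusted p under 0.05 by edgeR's quasi-likelihood test, 1008 (6.64%) lower and 1604 (10.6%) higher in the knockouts. In whole-kidney RNA, fewer cells of a type and less RNA per cell cannot be told apart.

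One of these genes, Pvalb, was called lower in the knockouts with all 6 libraries, and none was called higher. The sodium cotransporter Slc12a3 and the calcium-binding Calb1 were far lower in knockout 3, less so in knockout 2 and within the control range in knockout 1. The calcium channel Trpv5 went the other way in knockouts 1 and 2, where it was above every control, and was below every control in knockout 3. Of the 10 genes, 1 was called lower (6.64% of all tested genes were) and 0 higher (10.6%), 3 had an unadjusted p under 0.05 (38.6%) and 8 had a log2 fold change below 0 (48.5%). For 4 genes, Pvalb, Wnk1, Wnk4 and Klhl3, all 3 knockouts lay below all 3 controls (22.2% of all tested genes), and for 0 genes above (23.8%). At an adjusted p under 0.1 the edgeR count was 2 (33.2% of all tested genes). Without knockout 1, 3 of the 10 genes were called by edgeR (34.4%), and DESeq2's Wald test called 2 (32.2%). The count was 0 by edgeR without any 1 of the other 5 libraries, with a replicate block and with an Xist to Y-linked covariate. In those fits 0% to 0.474% of all tested genes were called. There 1 to 3 of the 10 had an unadjusted p under 0.05 (27.4% to 35.8% of all tested genes). The median log2 fold change was -0.66 over the 10 genes and 0.02 over all genes tested.

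**Figure D1:**
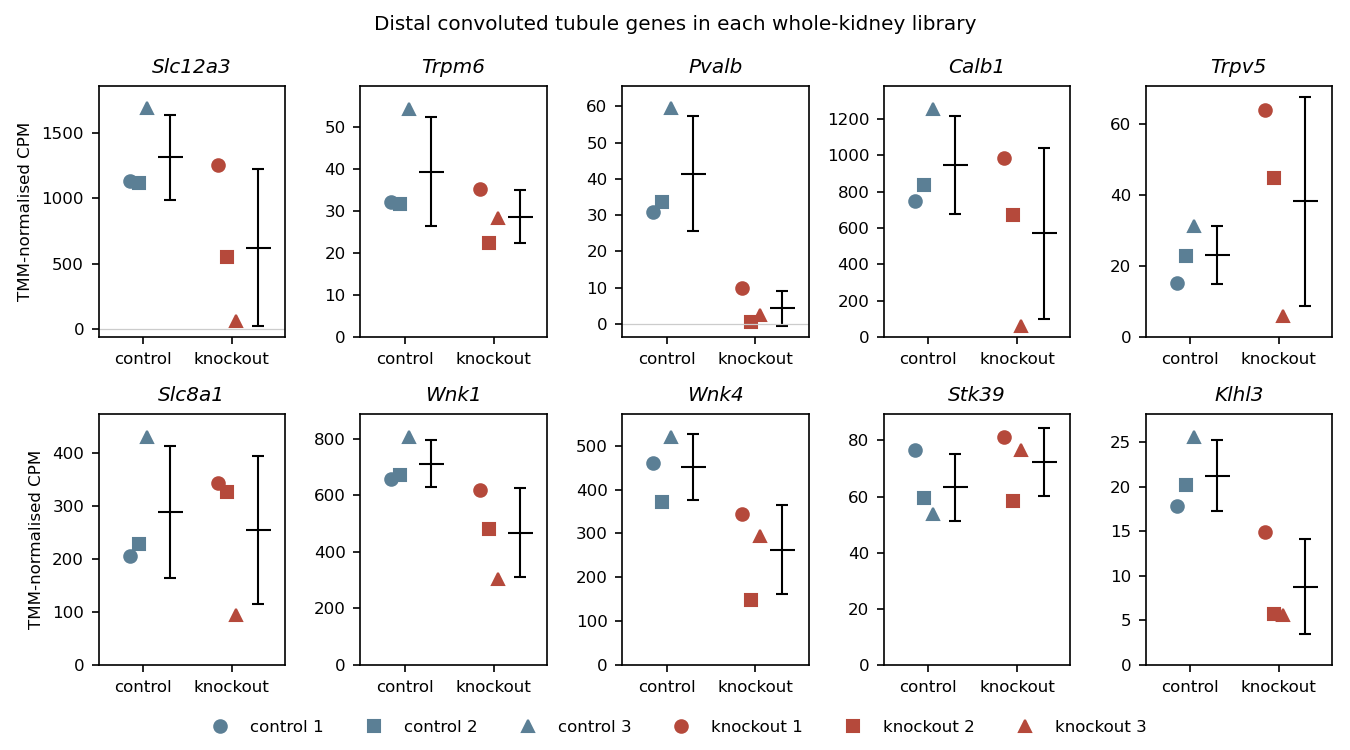
TMM-normalised CPM (linear axis) of the 10 genes in each library, with controls in blue and knockouts in red, and the mean and SD of each group (n = 3) as a black bar. Knockout 3 sits near 0 for Slc12a3 and Calb1, at 61.7 and 59.7 CPM, while all 3 knockouts sit under the controls for Pvalb.

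Slc12a3 encodes NCC and defines the segment. It lies on the plus strand of chromosome 8 from 96853092 to 96890113 (mm9). The sequence before its annotated start is shown because, of the 10 genes, it had the largest SD of log2 CPM among the knockouts. That of Pvalb is shown because it is the 1 gene called. Capitals mark the letters TATAAA. The Slc12a3 stretch is chr8:96852858-96853091 on the plus strand and the Pvalb stretch is chr15:78036831-78037080 on the minus strand, both read from RefSeq promoter windows built on GRCm38.p6 and each placed on mm9 by an exact match found once on its own chromosome.
Slc12a3: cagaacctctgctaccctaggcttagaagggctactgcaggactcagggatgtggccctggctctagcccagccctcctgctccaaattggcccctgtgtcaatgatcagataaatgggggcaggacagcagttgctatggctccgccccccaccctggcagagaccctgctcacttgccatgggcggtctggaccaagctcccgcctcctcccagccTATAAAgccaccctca
Pvalb: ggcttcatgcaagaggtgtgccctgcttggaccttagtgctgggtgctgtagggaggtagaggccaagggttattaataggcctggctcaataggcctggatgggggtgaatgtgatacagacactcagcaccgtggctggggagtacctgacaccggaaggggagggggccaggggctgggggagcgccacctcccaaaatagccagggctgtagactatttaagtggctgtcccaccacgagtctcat
RefSeq windows of 250 bases before a start site were found for 9 of the 10 genes, with 10 windows in all, since Pvalb has a pair of them. The letters TATAAA stood on either strand in 2 windows, those of Slc12a3 and Trpv5, and in 12.4% of 32851 windows of the same length. None of the 10 windows held the HNF1 half-site GTTAAT (in 6.43% of all windows), the nuclear receptor half-site AGGTCA (14%), the steroid receptor half-site TGTTCT (16.1%) or the AP-1 site TGANTCA (6.75%) on either strand. The motifs searched do not overlap in these windows. The stretch shown for Slc12a3 stops at the annotated gene start.

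The Slc12a3 level was 1130, 1115 and 1686 CPM in controls 1 to 3 and 1250, 552 and 61.7 CPM in knockouts 1 to 3. Knockout 1 was inside the control range, and knockouts 2 and 3 were below it. Behind the lowest value were 805 counts, so counting error was small beside the spread. By edgeR the log2 fold change was -1.08 (SE 0.88, adjusted p = 0.397). It was -2.10 without knockout 1, -0.54 without knockout 3 and -2.02 by limma-voom, and adjusted p was 0.105 to 0.587 over all alternatives. Among the knockouts, the SD of log2 CPM was 2.24 for Slc12a3 and 2.19 for Calb1, and 0.370% and 0.406% of the 11338 genes with a mean log2 CPM of at least 3 had a larger SD there. The median SD of those genes was 0.25 in the knockouts and 0.18 in the controls.

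Stk39, Wnk1, Wnk4 and Klhl3 form the switch that sets NCC activity. Wnk1 and Wnk4 encode the WNK kinases of the segment. The Wnk1 level was 657, 671 and 808 CPM in controls 1 to 3 and 619, 482 and 304 CPM in knockouts 1 to 3. All knockouts were below all controls, with knockout 1 close to the lowest control. For Wnk1 edgeR gave -0.60 on the log2 scale (SE 0.29, adjusted p = 0.170), and the call was made without knockout 1 (-0.87, adjusted p = 0.0401), the lowest adjusted p of its alternatives, which reached 0.365. It was -0.37 without knockout 3 and -0.35 with library size alone. The kidney makes a short Wnk1 form that lacks the kinase domain, and gene-level counts do not separate it from the long form.

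The Wnk4 level was 460, 372 and 521 CPM in controls 1 to 3 and 345, 149 and 294 CPM in knockouts 1 to 3. Here too all knockouts were below all controls, and knockout 2 was the lowest. Wnk4 had a log2 fold change of -0.78 (SE 0.33), with an unadjusted p of 0.04997 and an adjusted p of 0.129 by edgeR. Leaving out 1 library gave -1.04 (without knockout 1) to -0.50 (without knockout 2). Klhl3, the adaptor that hands WNK kinases to degradation, had 17.9, 20.2 and 25.6 CPM in controls 1 to 3 and 14.9, 5.77 and 5.59 CPM in knockouts 1 to 3. Knockouts 2 and 3 lay well under the controls and knockout 1 just under them. For Klhl3 edgeR gave -1.27 on the log2 scale (SE 0.42, adjusted p = 0.0720), and without knockout 1 it was -1.91 (adjusted p = 0.0036, the lowest of its alternatives, which reached 0.177).

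Stk39 encodes SPAK, the kinase that phosphorylates NCC. Its level was 76.5, 59.5 and 53.7 CPM in controls 1 to 3 and 81.4, 58.6 and 76.7 CPM in knockouts 1 to 3. The groups overlapped, and the log2 fold change was 0.19 (SE 0.19, edgeR adjusted p = 0.494). It was 0.08 to 0.33 with 1 library left out and 0.45 with library size alone. In knockout 3, the library with the lowest Slc12a3, Stk39 lay just above the highest control. Whole-kidney counts do not show whether this RNA came from the distal convoluted tubule. The 3 genes Wnk1, Wnk4 and Klhl3 had log2 fold changes below 0, and Stk39 had one above 0.

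The other genes of this switch were followed in a list of 12, among them further WNK kinases, the SPAK homologue Oxsr1, the ligase subunit Cul3 and the aldosterone pathway. None of the 12 was called (17.2% of all tested genes were). By edgeR 1 had an unadjusted p under 0.05 (38.6%), 9 had a log2 fold change below 0 (48.5%) and the median was -0.30. Ppp1r1a, an inhibitor of protein phosphatase 1, had the largest difference, with 300.2, 217 and 250 CPM in controls 1 to 3 and 217, 31.4 and 55.2 CPM in knockouts 1 to 3. Knockouts 2 and 3 were far below the controls, and knockout 1 lay just under the lowest of them (-1.34, SE 0.67, edgeR adjusted p = 0.183). Without knockout 1 it had -2.57 (adjusted p = 0.0031), and adjusted p was 0.0814 to 0.381 under the other alternatives. Wnk3 came next and was scarce, with 10 to 21 counts in the controls and 20 to 37 in the knockouts (0.64, SE 0.41, edgeR adjusted p = 0.288).

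Sodium leaves these cells through the basolateral pump, which depends on potassium recycling and on chloride channels. Of 7 genes of this step, 1 was called lower (6.64% of all tested genes were) and 0 higher (10.6%). Their median log2 fold change was -0.92, and 6 were below 0 (48.5% of all tested genes). The called gene was Kcnj16, a subunit of the basolateral potassium channel. Whole-kidney counts do not show which segment the RNA of the genes of this step came from. For Kcnj16 the levels follow. Its level was 629, 722 and 906 CPM in controls 1 to 3 and 504, 352 and 337 CPM in knockouts 1 to 3, and the groups did not overlap. For Kcnj16 the log2 fold change was -0.92 (SE 0.25, edgeR adjusted p = 0.0493). Leaving out any library other than knockout 1 ended the call (adjusted p 0.0908 to 0.140), as did library size alone (0.0741) and no filter (0.0544).

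Magnesium handling was represented by Trpm6, the apical magnesium channel of the segment. Pvalb, a gene of the same early part of the segment, is given beside it. The Trpm6 level was 32.1, 31.7 and 54.4 CPM in controls 1 to 3 and 35.2, 22.5 and 28.5 CPM in knockouts 1 to 3. Knockout 1 was inside the control range and the other knockouts were below it. For Trpm6 the log2 fold change was -0.46 (SE 0.27, edgeR adjusted p = 0.250). It ranged from -0.64 without knockout 1 to -0.16 without control 3, and was -0.20 with library size alone.

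Pvalb encodes parvalbumin, a calcium-binding protein of the early distal convoluted tubule. Its level was 30.9, 33.5 and 59.6 CPM in controls 1 to 3 and 9.86, 0.602 and 2.37 CPM in knockouts 1 to 3. Every knockout was below every control, and the knockouts averaged 4.28 ± 4.92 CPM (SD, n = 3) against a control mean of 41.4 ± 15.9 CPM (SD, n = 3). Behind these values lay 622, 570 and 993 counts for controls 1 to 3, but 201, 12 and 31 for knockouts 1 to 3, and the 12 counts correspond to 0.674 CPM before TMM (Wilson 95% interval 0.386 to 1.18, counting error only). For Pvalb the log2 fold change was -3.25 (SE 0.87, edgeR adjusted p = 0.0471), a 9.53-fold lower level. The call was lost when any 1 library other than knockout 1 was left out, with log2 fold changes of -3.45 to -2.72 and adjusted p of 0.0806 to 0.127, and it held without knockout 1 (-4.88, adjusted p = 0.0039). By limma-voom it held at -3.99 (adjusted p = 0.0401). It was also lost with a replicate block (-3.88, adjusted p = 0.0767) and when Xist over Y-linked counts (log2) entered as a covariate (-3.39, adjusted p = 0.121).

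Parvalbumin is also a protein of fast skeletal muscle. The skeletal muscle genes Acta1, Ckm and Tnnt3 had between 0 and 13 counts in any library and did not pass the filter. Mylpf, the 1 muscle gene of 4 that passed, had 14 to 33 counts in the controls and 13 to 24 in the knockouts. The summed level of the 4 genes was 1.00 to 1.94 CPM before TMM in controls and 1.23 to 2.58 in knockouts. Its part in the Pvalb values was not tested.

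Of 11 further genes of magnesium handling, 0 were called by edgeR (17.2% of all tested genes were) and 6 had an unadjusted p under 0.05 (38.6%). The log2 fold change was below 0 for 6 and above 0 for 5, with a median of -0.59. All 3 knockouts were below all controls for 5 genes and above for 2 (22.2% and 23.8% of all tested genes). Kcna1, scarce at 9 to 17 counts in controls and 24 to 52 in knockouts, was above the controls in every knockout. Its log2 fold change was 1.37 (SE 0.40, edgeR adjusted p = 0.0570). Egf, the epidermal growth factor precursor, a hormone that raises TRPM6 activity, had 2172, 2822 and 1468 CPM in controls 1 to 3 and 774, 62.1 and 56.1 CPM in knockouts 1 to 3. All knockouts were below all controls, and knockouts 2 and 3 were close to each other. The log2 fold change was -2.86 (SE 1.07, edgeR adjusted p = 0.0984), -3.96 by limma-voom, and -5.20 without knockout 1 (adjusted p = 0.0022, with 0.030 to 0.214 in the other alternatives). Egf is also made by the thick ascending limb. Pcbd1, the dimerization cofactor of HNF1, had 238, 260.4 and 326 CPM in controls 1 to 3 and 174, 64.8 and 77.7 CPM in knockouts 1 to 3. Its groups did not overlap either (-1.38, SE 0.39, edgeR adjusted p = 0.0520). Pcbd1 was called with DESeq2 size factors (0.0477), by limma-voom (0.0489), by DESeq2's Wald test (0.0033) and without knockout 1 (0.0026), and its adjusted p was 0.0511 to 0.137 under the other alternatives.

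**Figure D2:**
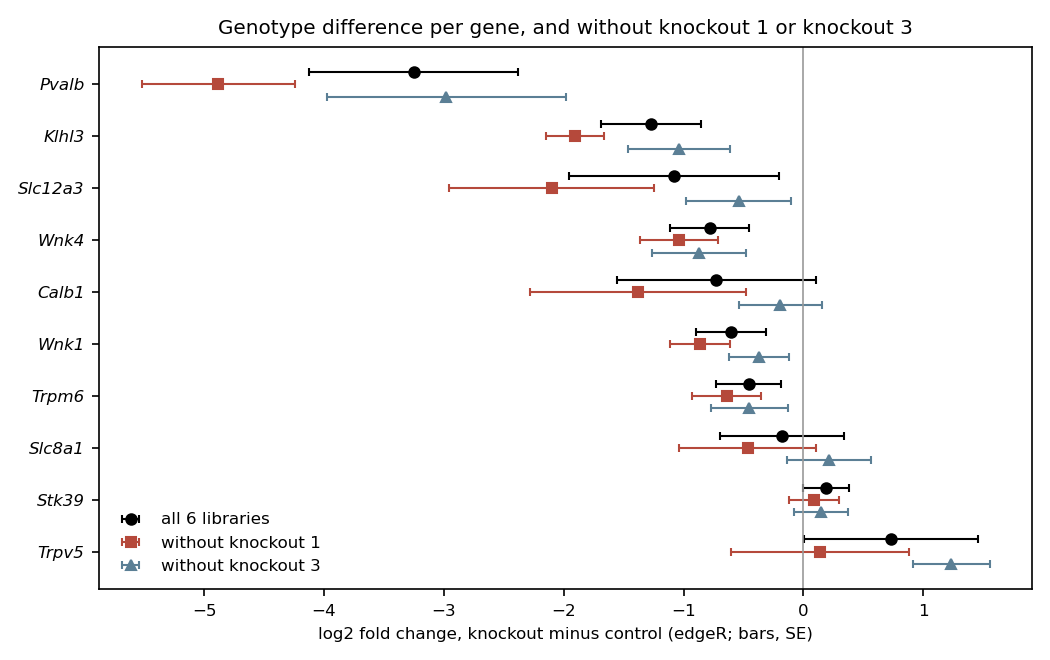
Log2 fold change, knockout minus control, from edgeR for the 10 genes with all 6 libraries (black), without knockout 1 (red) and without knockout 3 (blue), and bars for the SE. Pvalb is farthest from 0 at -3.25, and Trpv5 lies on the other side of 0, at 0.73 with all libraries, 1.23 without knockout 3 and 0.14 without knockout 1.

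Calcium transport was represented by Trpv5, Calb1 and Slc8a1. Trpv5 is the apical calcium channel of the late distal convoluted tubule and connecting tubule. Its level was 15.2, 22.7 and 31.3 CPM in controls 1 to 3 and 63.7, 44.6 and 6.05 CPM in knockouts 1 to 3. Knockouts 1 and 2 were above every control and knockout 3 was below every control. For Trpv5 the log2 fold change was 0.73 (SE 0.72, edgeR adjusted p = 0.486), with 1.23 (SE 0.32, adjusted p = 0.0792) without knockout 3 and 0.14 (SE 0.74, adjusted p = 0.902) without knockout 1, the lowest and highest adjusted p of its alternatives.

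Calb1 encodes calbindin-D28k, which ferries calcium across the cell. Its level was 747, 837 and 1256 CPM in controls 1 to 3 and 986, 672 and 59.7 CPM in knockouts 1 to 3. Knockout 1 was inside the control range, knockout 2 just below it and knockout 3 far below it. For Calb1 the log2 fold change was -0.73 (SE 0.83, edgeR adjusted p = 0.548). It was -0.19 without knockout 3, -1.38 without knockout 1 and -1.58 by limma-voom, and adjusted p was 0.277 to 0.761 over all alternatives. Slc8a1 encodes the sodium-calcium exchanger NCX1, the basolateral exit. Its level was 205, 229 and 430.2 CPM in controls 1 to 3 and 342, 326 and 93.5 CPM in knockouts 1 to 3. Knockouts 1 and 2 were inside the control range, and only knockout 3 was below it. For Slc8a1 the log2 fold change was -0.18 (SE 0.52, edgeR adjusted p = 0.819), and its sign turned without control 3 (0.22), without knockout 3 (0.21) and with library size alone as the scaling (0.07).

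Of 10 other genes of calcium handling, 2 were called higher and 2 lower, against 10.6% and 6.64% of all tested genes. Their median log2 fold change was -0.67, with 6 below 0 and 4 above (48.5% of all tested genes were below). Trpv6, the closest relative of Trpv5, had 3.83, 2.88 and 5.52 CPM in controls 1 to 3 and 9.96, 15.7 and 43.8 CPM in knockouts 1 to 3. All knockouts were above all controls, and knockout 3, the lowest library for Trpv5, was the highest for Trpv6. For Trpv6 the log2 fold change was 2.50 (SE 0.59, edgeR adjusted p = 0.0378), and 1.65 (adjusted p = 0.0677, range over its alternatives 0.00026 to 0.130) without knockout 3. Within a library, there were 0.127 to 0.252 counts of Trpv6 for each count of Trpv5 in controls, and 0.156, 0.352 and 7.24 in knockouts 1 to 3.

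Atp2b4, a plasma membrane calcium pump, had 44.5, 41.2 and 48.7 CPM in controls 1 to 3 and 64.8, 61.1 and 83.7 CPM in knockouts 1 to 3. All knockouts were above all controls (0.64, SE 0.16, edgeR adjusted p = 0.0420). Vdr, the vitamin D receptor, had 238, 297 and 369 CPM in controls 1 to 3 and 174, 94.4 and 100.7 CPM in knockouts 1 to 3. It was lower in every knockout (-1.29, SE 0.30, edgeR adjusted p = 0.0361). Pth1r, the parathyroid hormone receptor, had 537, 768 and 629 CPM in controls 1 to 3 and 406, 181 and 232 CPM in knockouts 1 to 3, again with no overlap (-1.24, SE 0.34, edgeR adjusted p = 0.0480). Vdr and Pth1r are also expressed in the proximal tubule. Whole-kidney counts do not show which cells the RNA of these genes, Atp2b4 included, came from. Leaving out any 1 library other than knockout 1 ended the calls of Trpv6, Atp2b4, Vdr and Pth1r. So did limma-voom for Trpv6 (adjusted p = 0.0741) and library size alone for Pth1r (0.0515).

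**Figure D3:**
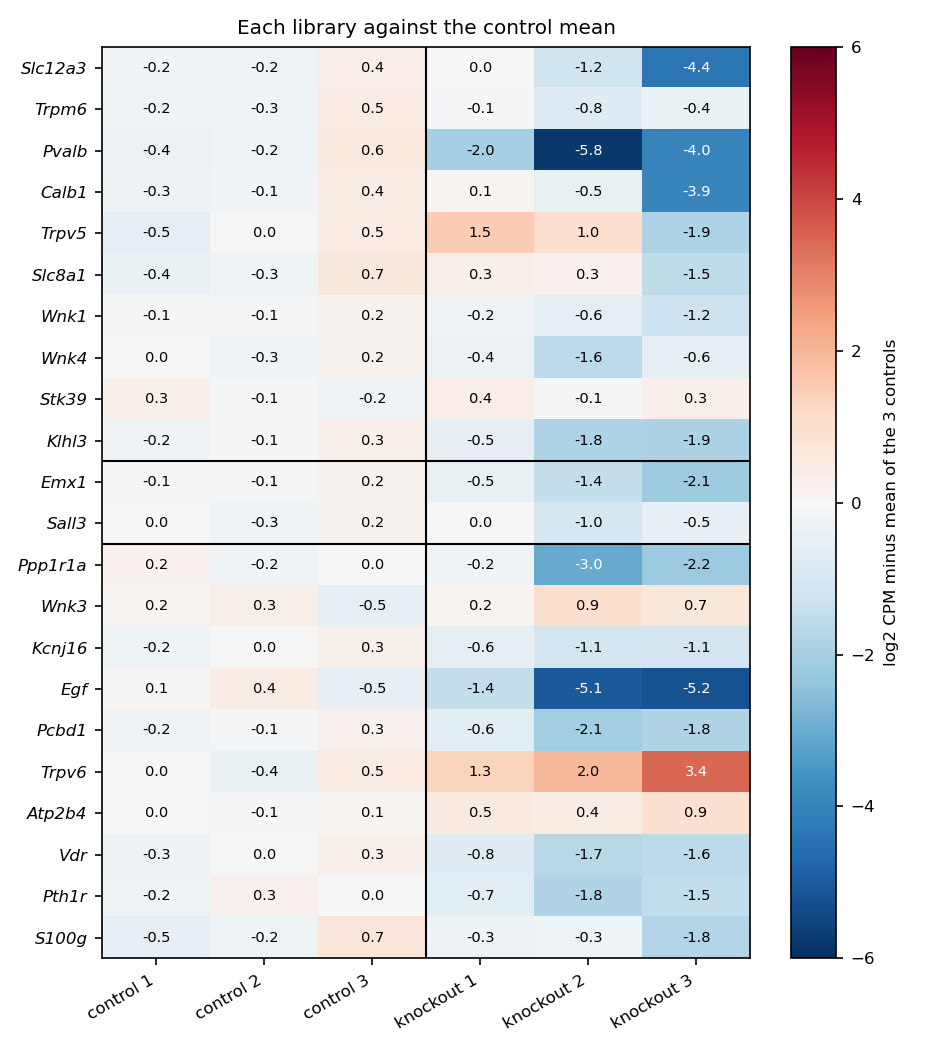
Log2 CPM of each library minus the mean of the 3 controls, for the 10 genes (top), 2 further marker genes of the segment (middle) and genes of the pathway lists (bottom), with blue for lower and red for higher and the value in each cell. In the rows of Slc12a3 and Calb1 the darkest cell is that of knockout 3, and in the row of Pvalb that of knockout 2. Trpv6 is red in all 3 knockouts. Within the knockout 3 column the lowest value is that of Egf, at -5.2.

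By library, 4 of the 10 genes were below every control in knockout 1, 7 in knockout 2 and 9 in knockout 3, against 30.4%, 38.8% and 39.3% of all tested genes. Above every control were 2 in knockout 1 (Trpv5 and Stk39), 1 in knockout 2 (Trpv5) and 1 in knockout 3 (Stk39), against 33.9%, 39.9% and 41.0%. Knockout 3 was the lowest of the 6 libraries for 6 genes and knockout 2 for 3, where 24.2% and 20.9% of all tested genes were lowest. Control 3 was the highest for 8 genes, all but Trpv5 and Stk39.

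Ratios of counts within a library do not depend on how libraries are scaled. They were taken for the 9 other genes against Slc12a3, with an exact permutation test, two-sided, whose smallest possible p with 3 against 3 libraries is 0.1 and which therefore cannot pass 0.05. Trpv5 counts made up 1.35%, 2.03% and 1.86% of the Slc12a3 counts for controls 1 to 3, against 5.09%, 8.08% and 9.81% for knockouts 1 to 3. All 3 knockouts were above all 3 controls, knockout 3 included (log2 difference 2.10, exact permutation p = 0.1, adjusted over 9 ratios 0.3). Slc8a1 stood at 18.1%, 20.5% and 25.5% of Slc12a3 for controls, against 27.4%, 59.0% and 151.6% for knockouts, also with no overlap (1.56, exact permutation p = 0.1, adjusted 0.3). Calb1 stood at 66.1%, 75.0% and 74.5% for controls, against 78.8%, 121.7% and 96.8% for knockouts, a shift of 0.44 on the log2 scale with the same exact permutation p of 0.1. These were 3 of the 9 ratios with all knockouts above all controls, against 28.0% of all other tested genes (0 of 9 and 0.105% below), a share near that of all genes and no result about the calcium transport genes. Slc12a3 itself was low in knockouts 2 and 3, and ratios above every control were 3 of 9 in knockout 1, 6 in knockout 2 and 9 in knockout 3, against 28.3%, 84.2% and 98.9% of all other tested genes. The Slc8a1 difference was 0.92 without knockout 3 and 2.16 without knockout 1.

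Pvalb behaved otherwise. Its counts made up 2.74%, 3.00% and 3.54% of those of Slc12a3 for controls 1 to 3, against 0.789%, 0.109% and 3.85% for knockouts 1 to 3. Relative to Slc12a3, Pvalb was lower in knockouts 1 and 2, and just above its control range in knockout 3 (log2 difference -2.15, exact permutation p = 0.4). That difference was -0.82 without knockout 2 and -3.39 without knockout 3. For each count of Pvalb there were 21.1 to 25.0 counts of Calb1 in controls and 99.9, 1117 and 25.1 in knockouts 1 to 3, with knockouts 1 and 2 far outside the control range and knockout 3 at its edge. Trpm6 counts were 2.84% to 3.23% of Slc12a3 in controls and 2.81%, 4.07% and 46.2% in knockouts, and the jump was in knockout 3 alone (log2 difference 1.45, 0.19 without knockout 3, exact permutation p = 0.4). Wnk4 and Klhl3, like Pvalb, were below their control range in knockouts 1 and 2 and above it in knockout 3. Wnk4 stood at 30.9% to 40.7% of Slc12a3 in controls and 27.6%, 26.9% and 477% in knockouts 1 to 3. For Klhl3 these were 1.52% to 1.81% in controls and 1.19%, 1.04% and 9.07% in knockouts. The exact permutation p values of the Wnk1, Wnk4, Stk39 and Klhl3 ratios were 0.3, 1, 0.2 and 1.

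**Figure D4:**
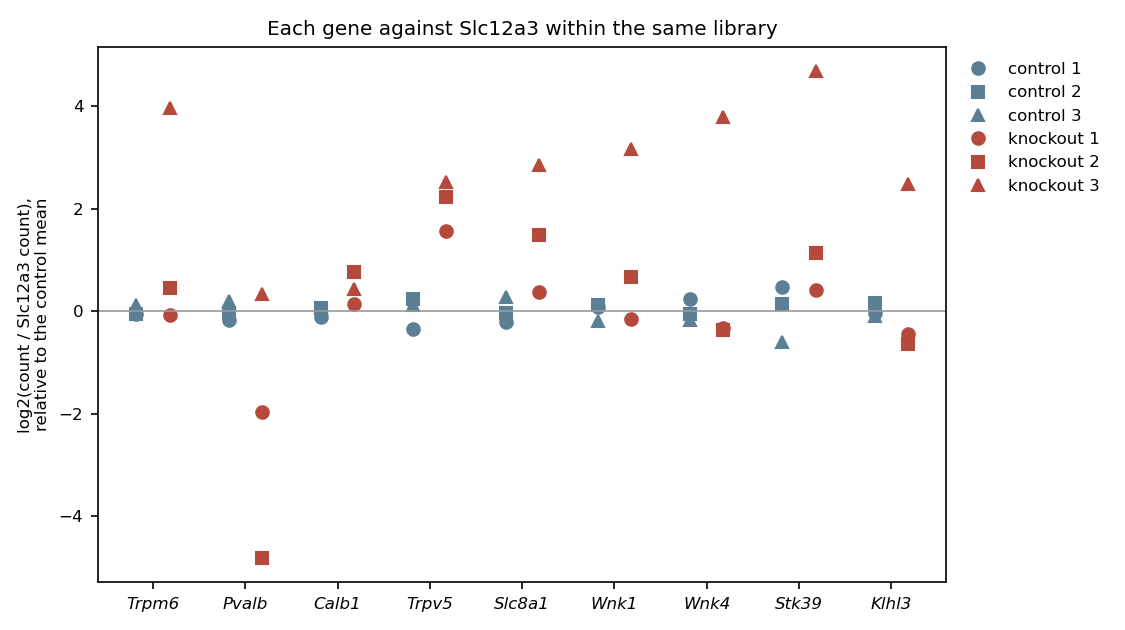
Log2 of each gene's count over the Slc12a3 count in the same library, set relative to the control mean, for 9 genes in controls (blue) and knockouts (red). All 3 knockouts lie above the controls for Calb1, Trpv5 and Slc8a1, while for Pvalb knockouts 1 and 2 lie far below and knockout 3 close to them.

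Divided by transcript length, Slc12a3 was the most abundant of the 10 genes in controls, at 396 CPM per kb of its longest coding transcript, followed by Calb1 at 224, Wnk4 at 109.5, Slc8a1 at 98.9 and Wnk1 at 67.3. Pvalb stood at 42.3, Stk39 at 17.9, Trpv5 at 7.11, Klhl3 at 6.72 and Trpm6 at 6.05 CPM per kb. In the knockouts the means were 188 for Slc12a3 and 136 for Calb1, and Pvalb dropped to 4.38 CPM per kb, beside Trpm6 at 4.41. No test between genes was made.

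Over the 6 libraries, Calb1 had the pattern most like that of Slc12a3 of all genes with a mean log2 CPM of at least 3, with a root mean square difference of 0.29 in centred log2 CPM. The nearest 5 genes outside the 10 were Robo3 (0.50), Kl (0.56), Uroc1 (0.57), Prom2 (0.60) and Pgam2 (0.61). Kl encodes klotho, the co-receptor for the phosphate hormone FGF23 and a gene of the distal tubule. Its level was 562, 874 and 1009 CPM in controls 1 to 3 and 474, 190.0 and 63.8 CPM in knockouts 1 to 3, all knockouts below all controls (-1.75, SE 0.67, edgeR adjusted p = 0.105). By the same measure Klhl3 stood at rank 327, and Pvalb, at rank 8471, was the least like Slc12a3 of the 10.

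Other markers of the segment and of its neighbours moved as follows. Emx1, a transcription factor gene of the distal convoluted tubule, had 49.4, 47.4 and 60.8 CPM in controls 1 to 3 and 37.9, 19.2 and 11.7 CPM in knockouts 1 to 3 (-1.19, SE 0.40, edgeR adjusted p = 0.0761). Sall3, another, had 7.93 to 11.05 CPM in controls and 9.72, 4.67 and 6.74 CPM in knockouts 1 to 3 (-0.44, adjusted p = 0.340). Emx1, like Slc12a3, was lowest in knockout 3, and Sall3 was lowest in knockout 2.

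Of the marker lists of other cell types, 5 of 5 proximal tubule genes were called lower, with a summed level before TMM of 7664 to 10309 CPM in controls and 1421 to 3864 in knockouts. Of 5 immune genes 4 were called higher (109 to 122 against 175 to 492), as were 2 of 4 fibroblast genes (146 to 374 against 679 to 2316) and 2 of 4 smooth muscle genes (121.0 to 180.0 against 246 to 2771). By edgeR 0 of 5 thick ascending limb genes were called (3707 to 9391 against 979 to 6534), and 1 had an unadjusted p under 0.05. Of all tested genes, 6.64% were called lower and 10.6% higher, and 38.6% had an unadjusted p under 0.05. The part of these changes in the values of the 10 genes and of the pathway genes was not tested.

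Knockout 3 stood apart in several of these lists. Its smooth muscle sum was the highest, and Myh11, smooth muscle myosin, had 782 CPM there against 33.9 to 131.7 in the other libraries. The collecting duct water channel Aqp2, in a list of 5 of which 0 were called by edgeR and 0 had an unadjusted p under 0.05 (671 to 1093 against 315 to 1487), had 56.1 CPM in knockout 3 and 405 to 873 CPM in the others. Aqp3, Avpr2 and Scnn1g of that list were also lowest in knockout 3, and Scnn1b, at 116.5 CPM, was not (77.3 to 139 CPM in the others). The intercalated cell genes Foxi1 and Atp6v1g3 were highest in knockout 3, at 149 and 182 CPM against 32.0 to 96.6 and 45.2 to 87.9 elsewhere, in a list of 4 of which 0 were called by edgeR and 1 had an unadjusted p under 0.05 (259 to 330 against 130 to 484). The other genes of that list were not highest there, with Slc4a1 at 20.2 CPM in knockout 3 against 67.1 to 123.5 CPM in controls and Slc26a4 at 74.5 CPM against 70.3 to 153.0 CPM. Of 3 endothelial genes 0 were called by edgeR and 2 had an unadjusted p under 0.05 (150 to 322 against 385 to 422). No listed marker of these types was at 0 in any library. The low values of Slc12a3, Calb1 and Trpv5 in knockout 3 therefore stood beside these differences, whose part in them was not tested.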

How the data were processed

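Poly-A RNA of 6 whole kidneys was sequenced by the authors as single reads. The authors ran CASAVA 1.8.2, Trimmomatic, TopHat2 2.0.11 on mm9 and HTSeq on uniquely mapped reads. The authors deposited raw counts for each gene, not normalized, in 1 table per group. The annotation and strand setting are not given in the sources used here, so genes overlapped by another on the opposite strand (Slc8a1, Trpm6, Wnk1 and Wnk4 among the 10) may hold its reads.

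Counts were tested with edgeR 4.0.16 (filterByExpr, minimum count 10 and minimum total 15, TMM, quasi-likelihood test, no covariate) in R 4.3.3, and p was adjusted by Benjamini-Hochberg over all 15171 genes tested. An adjusted p under 0.05 is a call. SE is the log2 fold change over the square root of F. Values of log2 CPM used a prior count of 2. Ratios were tested with SciPy 1.17.1. Alternatives were DESeq2 1.42.0 size factors, library size alone, no filter, DESeq2's Wald test, limma-voom (limma 3.58.1), each library left out, a replicate block, a covariate made of Xist over Y-linked counts (log2), an adjusted p under 0.1 and, for ratios, an offset of 0.5 counts.

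The edgeR fit of this comparison was checked on simulated data, and the ratio test and the alternatives were not. Replicates differed by more than sampling noise (chi-square per degree of freedom 52.9 to 125.5). From each pathway list, every called gene is named (at most 5 a direction), or else the 2 with the largest fold change; the 5 genes most like Slc12a3 follow the measure given there. The motifs searched, and Kcna1, Kl, Aqp2, Myh11, Foxi1 and Atp6v1g3 among the listed genes, were picked for display after values were seen. The 10 genes and all lists were chosen with earlier results of these data known. Positions are from GENCODE M1 on mm9.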

Additional observations from a re-analysis of the deposited data

How the results depend on the processing

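The number of genes called was 2612 (17.2% of all tested genes) with all libraries, of which 1 was among the 10 genes (Pvalb) and 5 among the 40 pathway genes. With 1 library left out these numbers were 0 to 5332, 0 to 3 and 0 to 17, the highest without knockout 1 and 0 genes without any 1 control (4270 to 4823 genes had an unadjusted p under 0.05 by edgeR). A replicate block, or the Xist to Y-linked ratio as a covariate, left 0, 0 and 0 called by edgeR (5432 and 4221 genes, 3 and 2 of the 10 and 18 and 8 of the 40 with an unadjusted p under 0.05). The deviations of same-numbered libraries correlated at -0.13, 0.01 and 0.21, not over 0.1 in every pair, and no label ties a number to a litter or day, so the block is an alternative only. Under the block Pvalb had -3.88 (adjusted p = 0.0767). DESeq2's Wald test called 4882 genes, 2 of the 10 (Pvalb and Klhl3) and 14 of the 40, and an adjusted p under 0.1 called 5034, 2 and 11. Of the calls, 61.4% were higher in knockouts, 81.8% with library size alone, where the median of all genes moved to 0.29, and 53.3% by DESeq2's Wald test. The other scalings, limma-voom and no filter called 2030 to 3647 genes, with Pvalb among them in each. Slc8a1 turned sign with library size alone (0.0701) and, over -0.47 to 0.22 with 1 library left out, without control 3 and without knockout 3. The log2 ratios to Slc12a3 of Wnk4 (1.03, range -0.35 to 1.72 with 1 library left out) and Klhl3 (0.46, range -0.55 to 1.01) turned sign without knockout 3. The other 9 fold changes and the median of the 10 genes (-0.95 to -0.41) kept their sign under each alternative. Where no cause is named, the cause was not tested.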
